A study of Drosophila melanogaster with 9 samples.

Results

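The 10 genes described here mark the blood cells of the fly and the matrix those cells help to lay down: Hml, NimC1, Sr-CI, eater, crq, Pxn, Col4a1, vkg, PPO1 and PPO2. They were chosen by gene symbol with earlier results of these data known. All 10 were found among the 15413 genes and unmatched transcripts of the count table. All 10 passed the filter on low counts and were tested with 11430 genes in all. RNA of adult Drosophila melanogaster was sequenced in 9 libraries, 3 from each of 3 genotypes. The glial libraries came from repo>Dube3a flies, in which repo-GAL4 drives a UAS-Dube3a transgene in glia. The neuronal libraries came from elav>Dube3a flies, in which elav-GAL4 (named C155 in the sample descriptions) drives the same transgene in neurons. The control libraries came from flies with the UAS-Dube3a transgene (Das45) and no driver, in a background the descriptions write as w. All 3 genotypes therefore carried the transgene, no library carried a driver alone, and the effect of a driver cannot be told apart from that of Dube3a. Dube3a is the fly homologue of the ubiquitin ligase UBE3A. Flies were raised at 25 degrees and used 3 to 5 days after eclosion. The design text gives 15 to 25 heads for each genotype, pooled before RNA extraction, while the sample labels give brain.

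Hemocytes circulate in the open body cavity of the fly and also settle against tissues, including inside the head. Most are plasmatocytes, macrophage-like cells that engulf bacteria and dying cells through surface receptors. A smaller class in the larva, the crystal cells, stores the prophenoloxidases that start melanin formation at a wound. Hemocytes and the fat body, the insect counterpart of liver and adipose tissue, also secrete the collagen of basement membranes, the thin sheets of matrix that line organs.

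Library totals were between 35550949 and 60322417 counts, and glial library 1 was the deepest. Ube3a, the gene of Dube3a in the annotation, lay between 189 and 220 CPM in the glial libraries, between 61.5 and 76.9 CPM in the neuronal libraries and between 30.6 and 39.6 CPM in the control libraries, with no overlap between the genotypes. CPM are counts scaled to a common library total after TMM normalization, which evens out differences in composition between libraries. Eye markers summed to 37510 to 55637 CPM over the 9 libraries, so RNA of the eye was present in all of them. The 11 neuronal markers summed to 2554 to 3049 CPM in the glial libraries, 3807 to 4120 CPM in the neuronal libraries and 3116 to 3241 CPM in the control libraries, with no overlap between genotypes. None of the 11 passed against the control with edgeR or limma-voom. Unadjusted, 0 were higher and 3 lower in the glial line, where 10.6% and 9.38% of all genes were. DESeq2 called 0 and 2 there (5.61% and 4.33% of all genes). In the neuronal line 5 were higher and 0 lower unadjusted (6.55% and 6.73% of all genes). DESeq2 called 3 and 0 in that line (1.95% and 2.16% of all genes). Between the driver lines 0 were higher and 3 lower with edgeR (2.02% and 1.67% of all genes). Unadjusted these counts were 0 and 10 (9.61% and 8.57% of all genes). The part of these markers in the results below was not tested. In RNA of a whole pool, a change in the number of hemocytes and a change in RNA per hemocyte cannot be told apart. Nothing in the labels says whether replicates came from separate crosses, so p-values refer to the spread among these samples.

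Levels were first compared between the genes per kilobase of transcript. In the glial libraries the highest was crq (52.4 ± 3.74 CPM per kilobase, SD, n = 3), a scavenger receptor for apoptotic cells, followed by Col4a1 (49.2 ± 13.2). The libraries of these neighbours overlapped. PPO2 (37.2 ± 16.2), PPO1 (36.1 ± 8.53), Pxn (32.3 ± 6.07) and vkg (25.4 ± 6.19) came next, and each overlapped with its neighbours. NimC1 (19.6 ± 2.86) and Hml (18.6 ± 1.14) followed and overlapped, and Sr-CI (7.11 ± 1.72) and eater (0.822 ± 0.0843) were lowest, each with all glial libraries below those of the gene before it. In the control libraries the order began with Col4a1 (47.9 ± 9.65 CPM per kilobase) and crq (38.9 ± 2.17), PPO1 (15.5 ± 3.89) and PPO2 (14.6 ± 2.36) stood at ranks 5 and 6, and Sr-CI (3.32 ± 0.208) and eater (0.535 ± 0.0976) were again lowest. The neuronal libraries ended with the same pair, at 2.28 ± 0.0398 for Sr-CI and 0.360 ± 0.0555 for eater. Hemese (He), which encodes a surface protein of larval hemocytes, lay between 0 and 0.420 CPM in all 9 libraries and was not tested. The scavenger receptor genes Sr-CIII and Sr-CIV lay at or below 0.0963 CPM in every library.

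**Figure D1:**
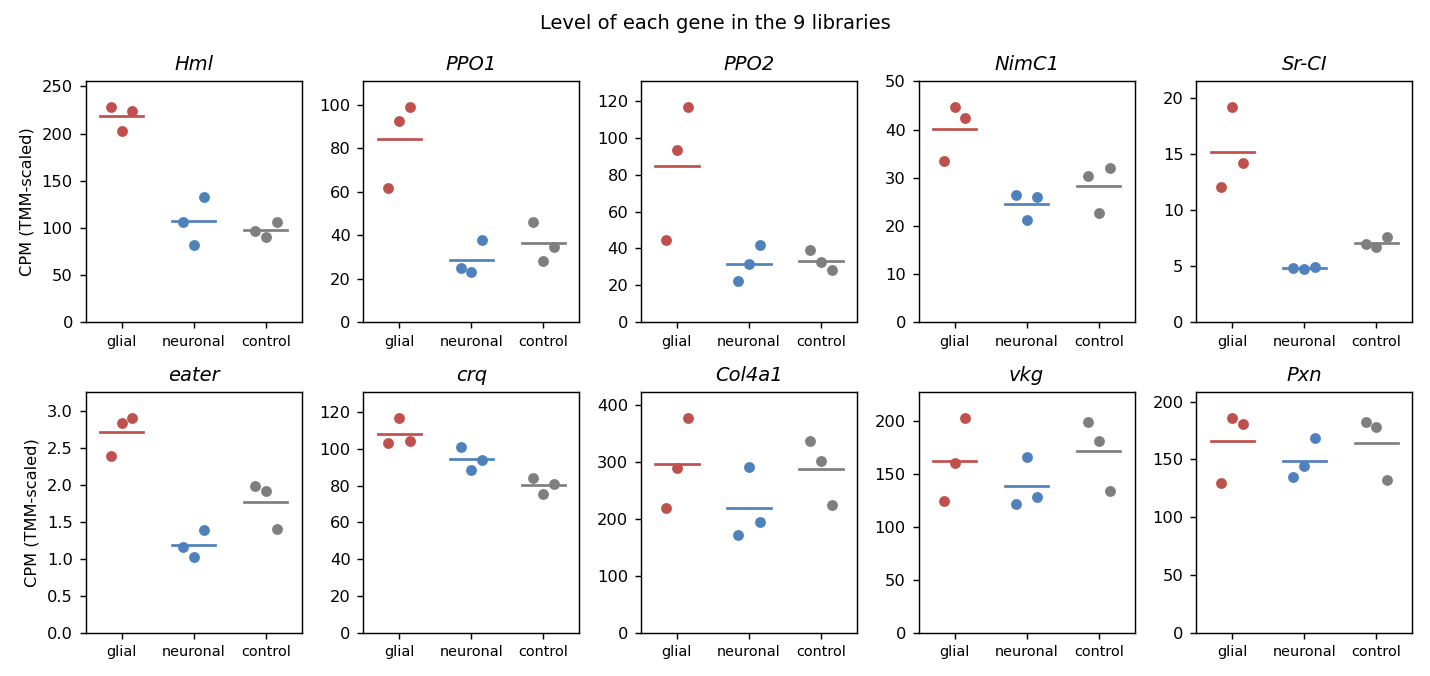
Level of each of the 10 genes in CPM (TMM-scaled) on a linear axis from 0, for the glial, neuronal and control groups from left to right. Points are libraries in the order of replicates 1 to 3 and lines are group means. The glial points lie above all control points for Hml, PPO1, PPO2, NimC1, Sr-CI, eater and crq, while the groups overlap for Col4a1, vkg and Pxn.

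The first comparison asked what differs between flies with glial Dube3a and the control. The clotting gene Hml, the scavenger receptor gene Sr-CI and the prophenoloxidase gene PPO1 rose in the glial line, each a little over 2-fold, and none of the 10 genes fell. The other 7 did not pass the threshold, an adjusted p under 0.05 from the edgeR quasi-likelihood test with Benjamini-Hochberg adjustment over all genes tested. Across all genes tested 2.54% rose and 1.88% fell by the same rule, 4.42% together. The median log2 fold change was 0.56 over the 10 genes and 0.01 over all genes. Because the 10 genes were chosen with earlier results known, such contrasts with all genes are descriptions only. For 7 of the 10 genes every glial library lay above every control library, which was so for 12.0% of all genes. When libraries were scaled by their totals, 126 of 281 calls over all genes were higher, against 290 of 505 with TMM, and the median of all genes was -0.097. The count of 3 among the 10 genes was 1 without control library 1 or 2.

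Hml encodes hemolectin, a large secreted protein that forms the fibres of the hemolymph clot and is widely used to mark plasmatocytes. It stood at 228, 203 and 223 CPM in glial libraries 1, 2 and 3, against 96.4, 90.5 and 106 CPM in the control libraries. Even the lowest glial library lay far above the highest control library. Hml rose 2.23-fold (log2 fold change 1.16 ± 0.17 SE, adjusted p = 0.0067, edgeR). This call was kept in all 18 alternative settings, with adjusted p between 3.1e-08 and 0.046. Its raw counts were between 3061 and 14975 per library.

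The prophenoloxidases are copper enzymes that oxidise phenols on the way to melanin. PPO1 stood at 61.7, 92.4 and 99.1 CPM in the glial libraries, against 46.1, 28.0 and 34.8 CPM in the control libraries. PPO1 rose 2.33-fold (1.22 ± 0.26, adjusted p = 0.034, edgeR). No overlap was seen between the groups, but the call was lost in 9 of 18 alternatives (adjusted p between 0.0531 and 0.123), among them scaling by library totals and the fits without glial library 2 or 3, neuronal library 1 or any 1 control library. PPO1 lies within the span of the gene Elk but shares 0 exonic bases with it. PPO2 stood at 44.5, 93.4 and 117 CPM in the glial libraries, against 38.9, 32.8 and 28.2 CPM in the control libraries. All glial libraries lay above the control, but glial library 1 was close to it, and the glial libraries spanned 2.62-fold among themselves. The fold change of PPO2 was the largest of the 10 genes at 2.55-fold (1.35 ± 0.35) and did not pass (adjusted p = 0.064, edgeR), though it did without glial library 1 (1.66, adjusted p = 0.0141, with 0.0013 to 0.20 over all alternatives).

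Sr-CI encodes a scavenger receptor that binds bacteria. It stood at 12.1, 19.2 and 14.2 CPM in the glial libraries, against 6.93, 6.71 and 7.56 CPM in the control libraries, with no overlap. Sr-CI rose 2.14-fold (1.10 ± 0.18, adjusted p = 0.012, edgeR). This call was lost with scaling by library totals and without control library 1 or 2 (adjusted p between 0.0534 and 0.0646).

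The other receptors were higher in every glial library than in any control library without passing the threshold. NimC1 and eater encode proteins of the Nimrod type, with repeated EGF-like modules, that take part in the uptake of bacteria. NimC1 stood at 33.6, 44.7 and 42.4 CPM in the glial libraries, against 30.4, 22.6 and 31.9 CPM in the control libraries (0.51 ± 0.17, adjusted p = 0.14, edgeR). The gene eater had the lowest counts of the 10, between 40 and 157 per library. It stood at 2.39, 2.84 and 2.91 CPM in the glial libraries, against 1.98, 1.92 and 1.40 CPM in the control libraries (0.62 ± 0.23, adjusted p = 0.17, edgeR). The gene crq (croquemort) varied by at most 1.14-fold within any genotype, the narrowest spread of the 10, with 103, 117 and 104 CPM in the glial libraries, against 84.3, 75.4 and 80.8 CPM in the control libraries. Its log2 fold change was 0.43 ± 0.11 (adjusted p = 0.055, edgeR), and it passed in DESeq2 (adjusted p = 0.00668) and in the fit with a term for gut RNA (0.47, adjusted p = 0.0406), with adjusted p between 0.0067 and 0.40 over the alternatives. In the annotation 15.73% of the exonic bases of crq are shared with the gene ex, and reads from that stretch cannot be assigned without strand.

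The matrix genes showed no difference beyond the spread between libraries. Col4a1 and vkg encode the chains of collagen IV, the main collagen of basement membranes, and are neighbours on opposite strands with no annotated gene between them. Col4a1 stood at 219, 289 and 377 CPM in the glial libraries, against 337, 302 and 224 CPM in the control libraries (0.04 ± 0.26, adjusted p = 0.96, edgeR). The gene vkg (viking) stood at 124, 160 and 203 CPM in the glial libraries, against 199, 181 and 134 CPM in the control libraries (-0.08 ± 0.22, adjusted p = 0.88, edgeR). Pxn encodes peroxidasin, an enzyme that crosslinks collagen IV, and shares 3.91% of its exonic bases with other annotated genes. It stood at 130, 186 and 181 CPM in the glial libraries, against 182, 178 and 132 CPM in the control libraries (0.01 ± 0.18, adjusted p = 0.98, edgeR). The glial and control libraries overlapped for these 3 genes. The sign of each turned under some settings: Col4a1 gave -0.09 and Pxn -0.10 with scaling by library totals, Col4a1 also -0.19 without glial library 3 and -0.11 without control library 3, Pxn also -0.10, -0.07 and -0.12 without glial library 2, glial library 3 and control library 3, and vkg 0.09 and 0.04 without glial library 1 and control library 1.

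**Figure D2:**
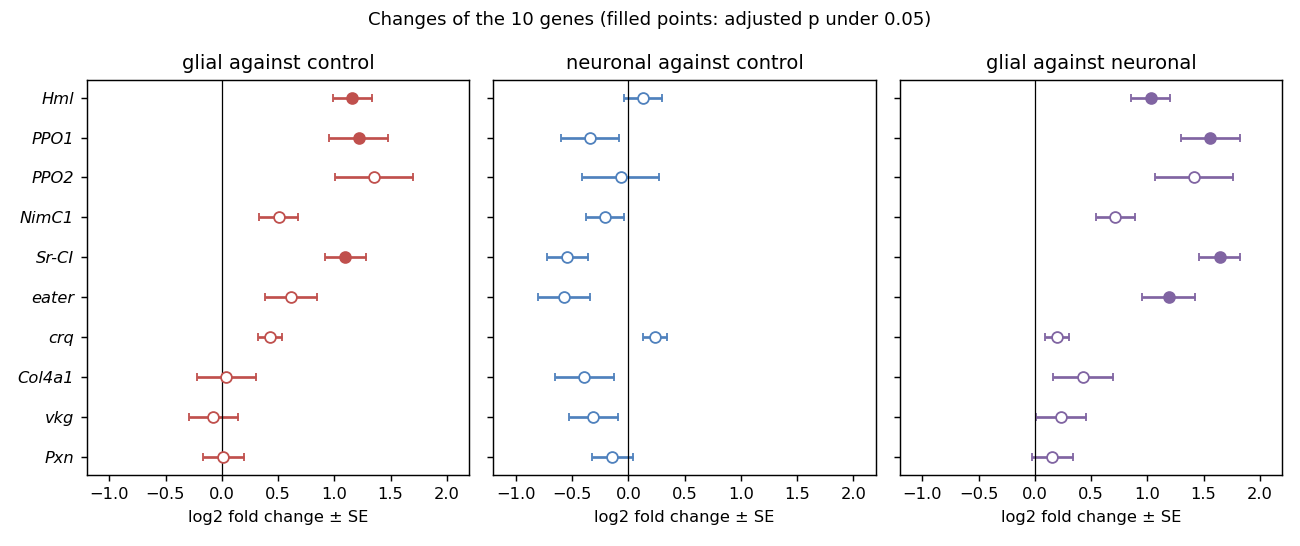
Log2 fold change ± SE of each of the 10 genes in the 3 comparisons, with clotting and melanin genes at the top, receptors in the middle and matrix genes at the bottom. Filled points passed an adjusted p of 0.05 in edgeR. Filled points are at 1.16, 1.22 and 1.10 for Hml, PPO1 and Sr-CI in glial against control, and no point is filled in neuronal against control.

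The next comparison asked the same of flies with neuronal Dube3a. Of the 10 genes 0 rose and 0 fell with edgeR, where 0.306% of all genes rose and 0.402% fell, 0.709% together. Over all genes 35 rose and 46 fell, against 27 and 17 with scaling by library totals. Before adjustment, p was under 0.05 for 0 higher and 2 lower genes, and DESeq2 and limma-voom each called 0. Over all genes 6.55% were higher and 6.73% lower unadjusted. The 2 lower genes were Sr-CI and eater, for which every neuronal library lay below every control library, as was so for 10.5% of all genes. Sr-CI stood at 4.85, 4.76 and 4.93 CPM in the neuronal libraries, against 6.93, 6.71 and 7.56 CPM in the control libraries (-0.54 ± 0.18, adjusted p = 0.25, edgeR). The 3 neuronal values of Sr-CI varied by 1.04-fold, the closest agreement between replicates of any of the 10 genes in any genotype. The gene eater stood at 1.16, 1.02 and 1.38 CPM in the neuronal libraries, against 1.98, 1.92 and 1.40 CPM in the control libraries (-0.57 ± 0.23, adjusted p = 0.34, edgeR).

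Only crq was higher in every neuronal library than in any control library, as 10.7% of all genes were. It stood at 101, 88.5 and 93.8 CPM in the neuronal libraries (0.24 ± 0.11 against the control, adjusted p = 0.38, edgeR). For the other 7 genes the neuronal and control libraries overlapped. Hml stood at 106, 82.3 and 133 CPM in the neuronal libraries (0.13 ± 0.17, adjusted p = 0.80, edgeR), and its sign turned without neuronal library 3 (-0.06). PPO1 averaged 28.6 ± 7.91 CPM in the neuronal line and 36.3 ± 9.10 CPM in the control (SD, n = 3 each), and PPO2 averaged 31.8 ± 9.86 CPM in the neuronal line and 33.3 ± 5.38 CPM in the control. The log2 fold change was -0.34 ± 0.26 for PPO1 and -0.07 ± 0.34 for PPO2, whose sign turned without neuronal library 1 (0.14) or control library 1 (0.06). Col4a1 averaged 219 ± 63.4 CPM in the neuronal line and 287 ± 57.9 CPM in the control (-0.39 ± 0.26, adjusted p = 0.58, edgeR). The log2 fold changes of NimC1, Pxn and vkg were -0.21, -0.14 and -0.31, and the median was -0.26 over the 10 genes and 0.003 over all genes.

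The 2 driver lines were also set against each other. Ube3a was 2.97-fold higher in the glial than in the neuronal line (1.57 ± 0.14, adjusted p = 0.00063, edgeR). Against the control it was 6.04-fold higher in the glial line and 2.03-fold higher in the neuronal line. The neuronal call of Ube3a was lost in 6 of 18 alternatives. The level of Ube3a and the driven cell type therefore cannot be told apart here. Hml, Sr-CI, eater and PPO1 were higher in the glial line than in the neuronal line and 0 of the 10 genes were lower, where 2.02% of all genes were higher and 1.67% lower, 3.69% together. The median log2 fold change was 0.87 over the 10 genes and 0.01 over all genes, and with scaling by library totals the median of all genes was -0.147. The calls over all genes were 231 higher and 191 lower, against 95 higher and 148 lower with library totals. For 7 of the 10 genes every glial library lay above every neuronal library, as was so for 11.1% of all genes. This comparison shares the glial libraries with the first and the neuronal libraries with the second, so it is not independent of them. The count of 4 was 1 without glial library 3 or neuronal library 1 and 2 without neuronal library 2.

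Sr-CI was 3.12-fold higher in the glial line (12.1, 19.2 and 14.2 CPM) than in the neuronal line (4.85, 4.76 and 4.93 CPM), with a log2 fold change of 1.64 ± 0.18 (adjusted p = 0.0024, edgeR). This was kept in all 18 alternatives (adjusted p between 9e-13 and 0.017). PPO1 was 2.95-fold higher (1.56 ± 0.26, adjusted p = 0.015, edgeR), a call lost without glial library 3 or neuronal library 1 or 2 (adjusted p between 0.0636 and 0.0729). Hml was 2.04-fold higher (1.03 ± 0.17, adjusted p = 0.014, edgeR), a call lost with scaling by library totals and without glial library 3 or neuronal library 1 (adjusted p between 0.0565 and 0.0934). The gene eater was 2.28-fold higher (1.19 ± 0.23, adjusted p = 0.027, edgeR). That call was lost in 10 of 18 alternatives, among them the fits without glial library 2 or 3, any neuronal library or control library 1 or 2 (adjusted p between 0.0512 and 0.103).

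The remaining genes did not pass between the driver lines. PPO2 gave 1.42 ± 0.35 (adjusted p = 0.059) and NimC1 0.71 ± 0.17 (adjusted p = 0.056, both edgeR), and both passed without glial library 1 (1.73 for PPO2, adjusted p = 0.0138, and 0.83 for NimC1, adjusted p = 0.0425), with adjusted p between 0.00062 and 0.20 for PPO2 and between 0.0046 and 0.27 for NimC1 over the alternatives. The log2 fold change was 0.20 ± 0.11 for crq, 0.43 ± 0.26 for Col4a1, 0.23 ± 0.22 for vkg and 0.15 ± 0.18 for Pxn, where the value of Pxn turned to -0.02 with library totals.

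The glial libraries did not order the genes alike. Glial library 1 was the lowest of the 3 glial libraries for 9 of the 10 genes and the highest of all 9 libraries for the remaining one, Hml. Glial libraries 2 and 3 were the highest of all 9 libraries for 4 and 5 of the genes. Glial library 1 also held the lowest sum of yolk protein genes of any library, 38273 CPM, against 144602 and 153602 CPM in glial libraries 2 and 3. The neuronal sums, 54657 to 74928 CPM, all lay below the control sums, 83355 to 143697 CPM. Of the 3 yolk protein genes 0 passed in neuronal against control, where 0.306% of all genes rose and 0.402% fell. The part of these differences between libraries in the values above was not tested.

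Ratios of counts within a library do not depend on how libraries are scaled, and were added as descriptions after the values had been seen, with no test. The ratio of Col4a1 to vkg stayed between 1.42 and 1.86 in all 9 libraries while each gene alone varied by up to 1.72-fold within a group. It was 1.77, 1.81 and 1.86 in the glial libraries, 1.42, 1.76 and 1.52 in the neuronal libraries, and 1.69, 1.67 and 1.67 in the control libraries. All glial ratios lay above all control ratios by a small margin. The ratio of PPO1 to PPO2 overlapped between all groups, at 1.08 ± 0.279 in the glial line, 0.923 ± 0.197 in the neuronal line and 1.09 ± 0.207 in the control (SD, n = 3 each).

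Hml stood higher relative to NimC1 and Col4a1 in the glial libraries than in the control libraries. Its ratio to NimC1 was 6.80, 4.54 and 5.28 in the glial libraries, 4.02, 3.89 and 5.13 in the neuronal libraries, and 3.17, 4.001 and 3.33 in the control libraries. All glial values lay above all control values. Its ratio to Col4a1 was 1.04, 0.704 and 0.593 in the glial libraries, 0.614, 0.282 and 0.687 in the neuronal libraries, and 0.286, 0.300 and 0.476 in the control libraries. Glial and control libraries again did not overlap. The ratio of Sr-CI to NimC1 was 0.359, 0.429 and 0.334 in the glial libraries, 0.184, 0.225 and 0.190 in the neuronal libraries, and 0.228, 0.297 and 0.237 in the control libraries. The ratio of crq to NimC1 was 3.07, 2.62 and 2.46 in the glial libraries, 3.84, 4.18 and 3.61 in the neuronal libraries, and 2.78, 3.34 and 2.53 in the control libraries, so the neuronal values lay above all others.

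**Figure D3:**
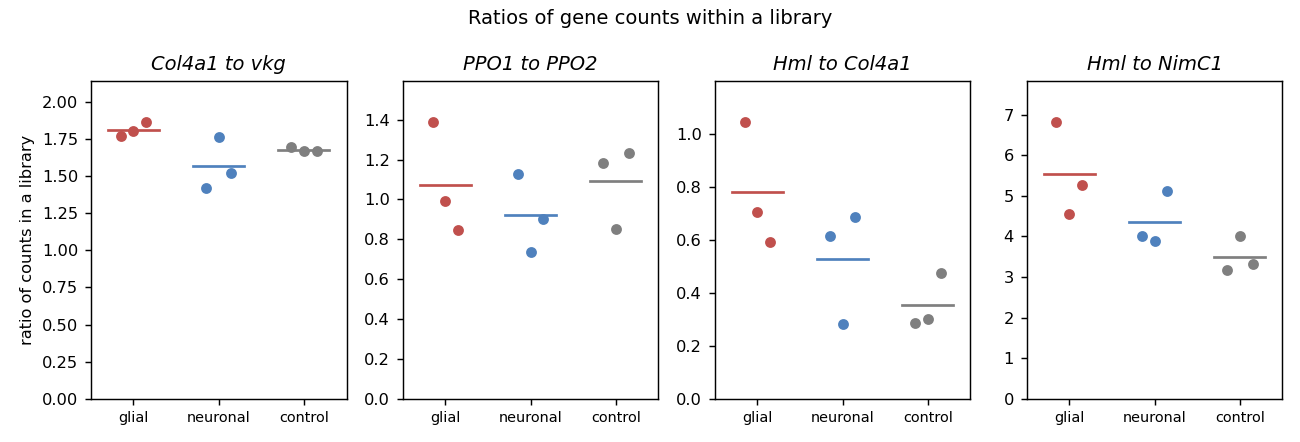
Ratio of the counts of gene pairs within each library, on linear axes from 0, for the glial, neuronal and control groups from left to right. Points are libraries in the order of replicates 1 to 3 and lines are group means. The ratio of Col4a1 to vkg stays between 1.42 and 1.86, and Hml stands higher relative to NimC1 and to Col4a1 in the glial libraries than in the control libraries.

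The table lists transcripts, and 7 of the 10 genes have more than 1. The 3 transcripts of Col4a1 each held 32.5% to 34.3% of the gene's counts in every library, and those of vkg 32.2% to 34.2%. The transcripts of Hml each held 48.6% to 51.4%. The range was wider for Sr-CI, whose 2 transcripts held 44.1% to 55.9% of only 185 to 791 counts per library. The 3 transcripts of NimC1 held 28.4% to 42.0%, and the 5 of crq held 17.8% to 24.8%. Pxn was the least even: of its 5 transcripts, 1 held 5.96%, 6.26% and 6.66% of the counts in the glial libraries, 5.29%, 6.63% and 6.02% in the neuronal libraries and 6.29%, 6.77% and 5.51% in the control libraries, while the other 4 held 21.41% to 24.91% each. Those ranges overlap between the genotypes. The variance between a gene's transcripts over their mean count had medians of 0.55 for Sr-CI, 0.667 for Col4a1, 0.905 for vkg and 0.94 for Hml. It was 2.19 for NimC1, 11.1 for crq and 193 for Pxn. Reads split at random over transcripts would give about 1, so near-equal shares cannot be read as equal transcript levels. The setting with single transcripts rests on 1 such transcript per gene.

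Other genes of hemocyte biology were taken from 4 lists, also chosen with earlier results of these data known. Their counts are to be read against those over all genes. In glial against control 10.6% of all genes were higher and 9.38% lower unadjusted, 5.61% and 4.33% by DESeq2, and 2.13% and 1.82% by limma-voom. In neuronal against control 6.55% were higher and 6.73% lower unadjusted, 1.95% and 2.16% by DESeq2, and 0.219% and 0.315% by limma-voom. In glial against neuronal 9.61% were higher and 8.57% lower unadjusted, 5.09% and 3.78% by DESeq2, and 2.04% and 1.78% by limma-voom. Among 17 tested genes of phagocytosis and pathogen recognition, 1 rose and 0 fell in the glial line against the control with edgeR (5 and 0 unadjusted, 4 and 0 by DESeq2, 2 and 0 by limma-voom), where 2.54% of all genes rose and 1.88% fell with edgeR, and the median was 0.25. The count was 2 without glial library 2 or control library 2 and 3 without control library 3. The gene that passed was Tep4, a thioester protein gene of hemocytes and fat body, which averaged 144 ± 4.68 CPM in glial libraries and 40.4 ± 13.6 CPM in control libraries (1.83 ± 0.22, adjusted p = 0.0028, edgeR). Tep4 averaged 84.1 ± 12.2 CPM in the neuronal libraries, each of them above every control library (1.06 ± 0.22 against the control, adjusted p = 0.075, edgeR), and passed there in 3 of 18 alternatives, among them without control library 3 (adjusted p = 0.0139, with 0.00029 to 0.28 over all alternatives). NimC4, also called simu, encodes a receptor by which glia and macrophages take up dying cells. It stood at 18.4, 9.54 and 25.8 CPM in the glial libraries, against 7.20, 4.66 and 6.71 CPM in the neuronal libraries and 6.13, 5.74 and 8.70 CPM in the control libraries. NimC4 was higher in the glial than in the neuronal line (1.53 ± 0.35, adjusted p = 0.048, edgeR), a call lost in 11 of 18 alternatives, and did not pass against the control (1.38 ± 0.35, adjusted p = 0.061). Against the control it passed in 3 of 18 alternatives, among them DESeq2 (adjusted p = 0.00117) and without glial library 2 (1.66, adjusted p = 0.0157), with adjusted p between 0.0012 and 0.19 over all alternatives. The engulfment receptor gene drpr (draper) gave 0.25 ± 0.12 in the glial line (adjusted p = 0.27) and 0.03 ± 0.12 in the neuronal line (adjusted p = 0.94), and its sign in the neuronal line turned without neuronal library 2 (-0.06). NimB2 gave 0.45 ± 0.22 in the glial line (adjusted p = 0.31) and 0.01 ± 0.22 in the neuronal line (adjusted p = 0.99).

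NimC2 is another gene of the Nimrod family. It stood at 10.8, 16.9 and 20.7 CPM in the glial libraries, 6.01, 6.60 and 6.39 CPM in the neuronal libraries and 13.3, 15.2 and 14.9 CPM in the control libraries. Every neuronal library lay below every other library. NimC2 was higher in the glial than in the neuronal line (1.35 ± 0.22, adjusted p = 0.013, edgeR; lost without neuronal library 1 or 3, adjusted p = 0.0569 and 0.0647). Against the control the neuronal value of -1.19 ± 0.22 did not pass (adjusted p = 0.055, edgeR) and did in 6 of 18 alternatives. In neuronal against control 0 of the 17 genes passed with edgeR, where 0.306% of all genes rose and 0.402% fell. Unadjusted, 3 were higher and 4 lower (6.55% and 6.73% of all genes). DESeq2 called 1 higher and 2 lower (1.95% and 2.16% of all genes), and limma-voom called 0. Between the driver lines 2 were higher and 0 lower, NimC2 and NimC4, where 2.02% of all genes were higher and 1.67% lower. That count was 0 without neuronal library 1 or 3 and 1 without glial library 3, neuronal library 2 or control library 1.

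Clotting and melanin genes other than the 10 did not pass in any comparison with edgeR. In the glial line against the control 4 of 13 were higher and 0 lower unadjusted, with 3 and 0 by DESeq2 and 0 by limma-voom, and the median was 0.21. Over all genes these shares were 10.6% higher unadjusted and 5.61% by DESeq2. With edgeR, 1 passed without glial library 1 or control library 3. In the neuronal line 0 were higher and 1 lower unadjusted (6.55% and 6.73% of all genes), with 0 by DESeq2 and by limma-voom. Between the driver lines 7 were higher and 0 lower unadjusted (9.61% and 8.57% of all genes), with 3 and 0 by DESeq2 (5.09% and 3.78% of all genes) and 0 by limma-voom, and 1 passed in edgeR without control library 3. The clot protein gene fon (fondue) stood at 283, 471 and 766 CPM in the glial libraries, against 553, 382 and 300 CPM in the control libraries, which overlapped (0.30 ± 0.38, adjusted p = 0.71, edgeR). The serpin gene nec (necrotic) averaged 168 ± 6.89 CPM in glial libraries and 125 ± 17.2 CPM in control libraries (0.42 ± 0.13, adjusted p = 0.11, edgeR).

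Of 12 tested genes of hemocyte fate and growth signals, 0 rose and 1 fell in the glial line with edgeR (2.54% and 1.88% of all genes). Unadjusted, 2 were higher and 1 lower (10.6% and 9.38% of all genes). DESeq2 called 1 and 1 (5.61% and 4.33% of all genes), and limma-voom called 0 and 1 (2.13% and 1.82%). The gene that fell was Pvf3, a ligand of the receptor Pvr through which hemocytes migrate and survive. Pvf3 stood at 44.3, 44.3 and 40.8 CPM in the glial libraries, against 68.3, 72.8 and 64.0 CPM in the control libraries, and fell by 0.67 ± 0.10 on the log2 scale (adjusted p = 0.0088, edgeR; lost with scaling by library totals, adjusted p = 0.059). The neuronal libraries lay between, at 59.5, 50.9 and 55.0 CPM (-0.31 ± 0.10 against the control, adjusted p = 0.24). The GATA factor gene srp (serpent), needed for hemocyte and fat body fate, gave 0.10 ± 0.16 in the glial line (adjusted p = 0.78, with its sign turned to -0.02 by scaling with library totals) and -0.43 ± 0.16 in the neuronal line (adjusted p = 0.29). In the neuronal line against the control 0 passed with edgeR, and DESeq2 and limma-voom each called 0. Unadjusted, 0 were higher and 2 lower there (6.55% and 6.73% of all genes). Between the driver lines 0 passed with edgeR, and 3 were higher and 1 lower unadjusted (9.61% and 8.57% of all genes). DESeq2 called 1 and 1 (5.09% and 3.78% of all genes), and limma-voom called 0.

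The list of 23 tested basement membrane genes leaves out Col4a1 and vkg and includes integrin genes. Of these 23, 6 rose, 0 fell and 17 did not pass in the glial line against the control (median 0.26). Across all genes 2.54% rose and 1.88% fell. Unadjusted, 9 of the 23 were higher and 0 lower (10.6% and 9.38% of all genes). DESeq2 called 8 and 0 (5.61% and 4.33%), and limma-voom called 5 and 0 (2.13% and 1.82%). In the same list 0 passed in the neuronal line with edgeR, where 0.306% of all genes rose and 0.402% fell. Unadjusted, 2 were higher and 3 lower in that line (6.55% and 6.73% of all genes). DESeq2 called 1 and 1 (1.95% and 2.16% of all genes), and limma-voom called 0. Between the driver lines 5 were higher and 0 lower, where 2.02% of all genes were higher and 1.67% lower. Unadjusted these counts were 11 and 2 (9.61% and 8.57% of all genes). DESeq2 called 9 higher and 1 lower, trol (5.09% and 3.78%), and limma-voom called 6 and 0 (2.04% and 1.78%). In edgeR trol gave -0.41 ± 0.14 between the driver lines (adjusted p = 0.14), with every glial library below every neuronal library. The count of 6 in glial against control was 2 with scaling by library totals and 3 without glial library 3 or control library 1 or 2. The count of 5 was 2 with library totals, 1 without glial library 3 or neuronal library 1, and 2 without neuronal library 2 or 3. Tig (tiggrin), an integrin ligand, averaged 195 ± 36.3 CPM in glial libraries and 80.4 ± 15.5 CPM in control libraries (1.28 ± 0.18, adjusted p = 0.0058, edgeR). The laminin genes LanA (0.85 ± 0.11, adjusted p = 0.0047) and LanB1 (0.74 ± 0.14, adjusted p = 0.02) rose, as did the metalloprotease gene Mmp1 (1.18 ± 0.18, adjusted p = 0.0068) and the papilin gene Ppn (0.72 ± 0.15, adjusted p = 0.031, all edgeR), and prc, a pericardin gene, was the other of the 6. Of these 6 calls, that of Tig was kept in all 18 alternatives, those of LanA and Mmp1 were lost in 1 each, LanB1 in 6, Ppn in 9 and prc in 14. The call of LanB1 was lost with library totals (adjusted p = 0.204) and, among single libraries, without glial library 1 or 3 or control library 1 or 2 (adjusted p between 0.0516 and 0.0806). That of Ppn was lost without glial library 2 or 3, neuronal library 1 or any 1 control library (adjusted p between 0.0546 and 0.119). That of prc was kept with DESeq2 size factors, DESeq2, single transcripts and without glial library 2. Of the 5 calls between the driver lines, that of LanB2 was kept in all 18 alternatives, and those of Tig, Ppn, Mmp1 and LanA were lost in 4, 7, 8 and 9. LanB2 gave 0.48 ± 0.12 against the control (adjusted p = 0.057) and was higher in the glial than in the neuronal line (0.89 ± 0.12, adjusted p = 0.0049, edgeR). The perlecan gene trol stood at 657, 507 and 551 CPM in the glial libraries, against 547, 559 and 574 CPM in the control libraries, which overlapped, and at 769, 748 and 770 CPM in the neuronal libraries, above all others (0.44 ± 0.14 against the control, adjusted p = 0.20, edgeR). The glial value of trol, 0.03 ± 0.14, turned to -0.06 with library totals and to -0.08 without glial library 1. Glt (glutactin) gave 0.66 ± 0.21 in the glial line and did not pass (adjusted p = 0.12).

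**Figure D4:**
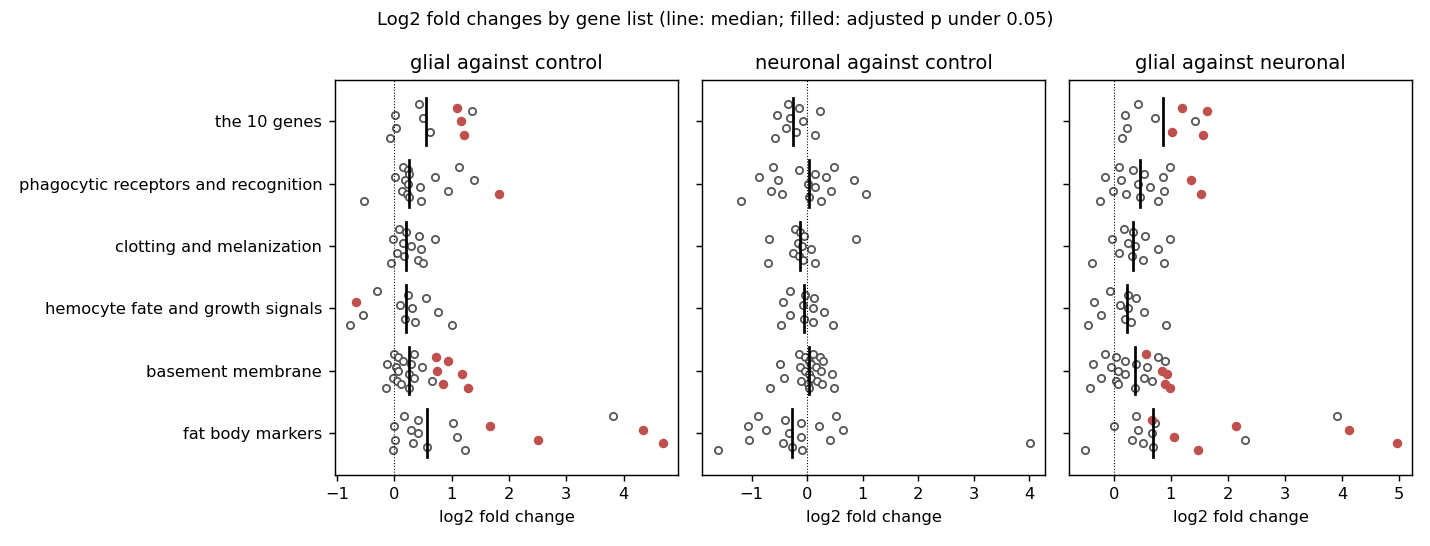
Log2 fold change of each tested gene in the 10 genes, the 4 lists of hemocyte and matrix genes and the fat body markers, in the 3 comparisons. Circles are genes, filled where the adjusted p of edgeR was under 0.05, and vertical lines are medians. The medians in glial against control are 0.56 for the 10 genes, between 0.21 and 0.26 for the 4 lists and 0.56 for fat body markers.

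Markers of other tissues were measured beside these genes, since collagen IV genes, Tep4 and others are also expressed in fat body. Of 17 tested fat body markers, 4 rose and 0 fell in the glial line against the control (Lsp2, Gnmt, tobi and Tsf1), with a median of 0.56, where 2.54% of all genes rose and 1.88% fell. Unadjusted, 10 were higher and 0 lower against the control (10.6% and 9.38% of all genes). DESeq2 called 6 and 0 there (5.61% and 4.33%), and limma-voom called 3 and 0 (2.13% and 1.82%). Against the neuronal line 6 were higher and 0 lower, where 2.02% and 1.67% of all genes were. Unadjusted these counts were 13 and 0 (9.61% and 8.57%). DESeq2 called 10 and 0 (5.09% and 3.78%), and limma-voom called 6 and 0 (2.04% and 1.78%). In the neuronal line against the control 0 passed with edgeR, 2 were higher and 6 lower unadjusted (6.55% and 6.73% of all genes), DESeq2 called 1 and 3 (1.95% and 2.16%), and limma-voom called 0. Lsp2, a storage protein gene of the fat body, stood at 161, 206 and 577 CPM in the glial libraries, 20.8, 1.30 and 8.18 CPM in the neuronal libraries and 22.5, 10.6 and 3.78 CPM in the control libraries. The gene tobi stood at 163, 33.4 and 83.6 CPM in the glial libraries and 28.2, 22.5 and 173 CPM in the neuronal libraries. Its control libraries held 3.54, 7.33 and 3.08 CPM, below all others. Against the control tobi gave 4.33 ± 0.94 in the glial line (adjusted p = 0.035) and 4.01 ± 0.92 in the neuronal line (adjusted p = 0.10, both edgeR). Between the driver lines it gave 0.32 ± 0.81 (adjusted p = 0.90, edgeR), so its level was not particular to the glial line. The summed level of the whole list was 13767 to 18118 CPM in the glial libraries, 9230 to 10325 CPM in the neuronal libraries and 11321 to 15413 CPM in the control libraries. The glial and control sums overlapped, and the neuronal sums lay below both. Of the fat body markers Lsp1alpha and Fbp2 were near 0 and were not tested. The part of fat body RNA in the values of the 10 genes was not tested.

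Gut markers, digestive protease and amylase genes, summed to 3093 to 71648 CPM in the glial libraries, 12361 to 76277 CPM in the neuronal libraries and 3104 to 73283 CPM in the control libraries, so they differed mostly within genotypes. In a fit with a term for this gut level, Hml gave 1.17, Sr-CI 1.16 and PPO1 1.27 in the glial line against the control, and 4 of the 10 genes passed, crq among them. Muscle markers summed to 11014 to 18679 CPM in the glial libraries, 12999 to 18075 CPM in the neuronal libraries and 13965 to 14085 CPM in the control libraries. With edgeR, DESeq2 or limma-voom 0 of 17 passed in any comparison. Unadjusted, 0 passed in the glial line, 2 were higher in the neuronal line (6.55% of all genes) and 1 between the driver lines (9.61%). Glial markers summed to 2021 to 2974 CPM in the glial line, 2890 to 3617 CPM in the neuronal line and 3072 to 3737 CPM in the control. Every glial-line sum lay below every control sum. Of these 10 markers 2 rose and 4 fell in the glial line against the control (2.54% and 1.88% of all genes). DESeq2 and limma-voom gave the same counts (5.61% and 4.33%, and 2.13% and 1.82%). Between the driver lines 2 were higher and 4 lower (2.02% and 1.67%). In neuronal against control 0 passed, where 0.306% of all genes rose and 0.402% fell. The part of these markers in the values of the 10 genes was not tested.

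**Figure D5:**
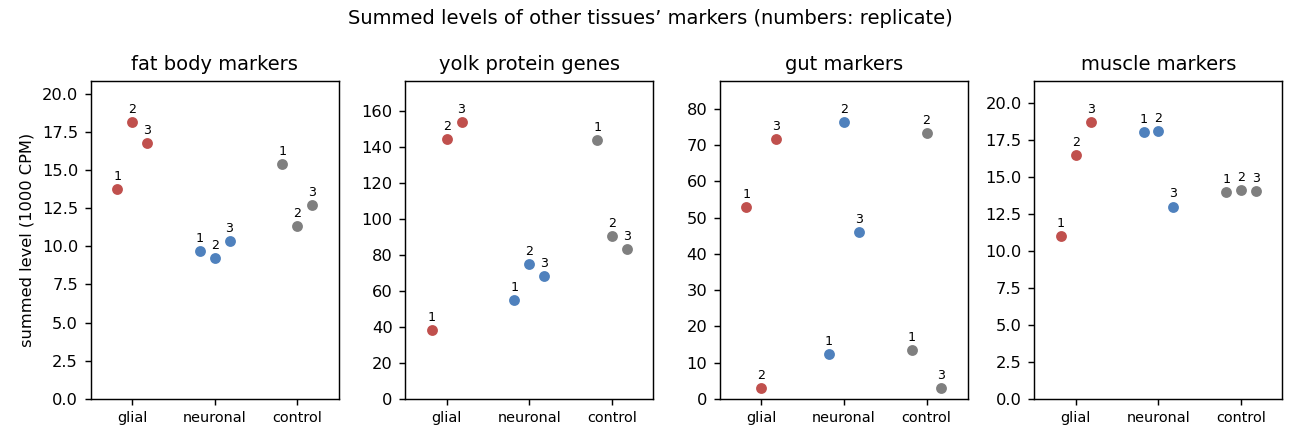
Summed level, in units of 1000 CPM on linear axes from 0, of fat body markers, yolk protein genes, gut markers and muscle markers in each library, for the glial, neuronal and control groups from left to right, with the replicate number over each point. Fat body sums are lowest in the neuronal libraries, gut sums vary more than 20-fold within the glial and the control groups, and glial library 1 has the lowest yolk sum.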

How the data were processed

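Unscaled whole-number counts of 31838 RefSeq transcripts in 9 Ion Torrent libraries were deposited by the authors. Per the submitters' processing notes, STAR and DESeq2 were used, with neither role nor version stated. What counted the reads, on which build and annotation, and whether by strand, is not given in the sources used here, so no coordinates are printed. Gene symbols came from RefSeq (assembly Release 6 plus ISO1 MT), which matched 31673 transcripts, and the other 165 were kept as entries of their own. Transcript lengths and shared exons came from Ensembl (BDGP6). Counts were summed per gene. Tests used edgeR 4.0.16 in R 4.3.3 (TMM, filterByExpr at 10 counts per library and 15 in total, quasi-likelihood test, group as the only term, all 9 libraries), with Benjamini-Hochberg adjustment over 11430 genes and a threshold of 0.05. SE is the log2 fold change divided by the square root of F. The procedure was also run on simulated counts, drawn independently for each library, with changes larger than those of the 10 genes. That run does not cover the differences in gut, yolk or fat body RNA between libraries. Alternatives were DESeq2 1.42.0, limma-voom (limma 3.58.1), DESeq2 size factors, library totals, no filter, the 6 libraries compared alone, a replicate block, the gut level as a covariate, single transcripts, and each library left out. Members, lists and the rule for naming other genes (up to 4 past the threshold by p in each list and comparison, otherwise the 2 with the highest mean CPM) were chosen with earlier results of these data known. He, the lowest-level receptors and fat body markers are named in addition, after their values were seen. The list members Sr-CII and zetaTry were not matched.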

Additional observations from a re-analysis of the deposited data

How the results depend on the processing

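Of the 10 genes, 3 passed in glial against control, and 1 passed with library totals, 5 with DESeq2 and 1 to 4 when 1 library was left out. In glial against neuronal 4 passed, and 2 passed with library totals and 1 to 6 when 1 library was left out. In neuronal against control 0 passed in every setting run. Over all genes, 505 passed in glial against control, and 281 with library totals, 1113 with DESeq2, 274 with the 6 libraries alone, 281 with the replicate block and 181 to 447 when 1 library was left out. The 422 of glial against neuronal became 243, 1013, 227, 241 and 154 to 392 in the same settings. The 81 of neuronal against control became 44 with library totals, 470 with DESeq2, 15 with the replicate block and 16 to 62 when 1 library was left out. The cause was not tested. Signs turned in glial against control for Pxn (-0.10 with library totals, -0.0023 with the block, -0.0313 with single transcripts, -0.121 to 0.161 when 1 library was left out), Col4a1 (-0.0873 with library totals, -0.0314 with the gut level as a covariate, -0.0032 with single transcripts, -0.19 to 0.214), vkg (-0.282 to 0.0856), NimC2 (-0.0776 to 0.38), fon (-0.139 to 0.588), srp (-0.0168 with library totals) and trol (-0.0606 with library totals, -0.0806 to 0.0873). In neuronal against control they turned for Hml (-0.0554 to 0.29), PPO2 (-0.316 to 0.135), NimB2 (-0.0148 with the block, -0.0151 with the gut level, -0.032 with single transcripts, -0.115 to 0.155), drpr (-0.0114 with the gut level, -0.0896 with single transcripts, -0.0613 to 0.0921), NimC4 (-0.275 to 0.0617) and Glt (-0.225 to 0.0337), and in glial against neuronal for Pxn (-0.0243 with library totals). Deviations of libraries of the same number gave correlations of -0.66 to 0.42 over 9 pairs, against -0.68 to 0.58 over the 18 others. No pairing by number was visible, and with 3 libraries per group this check cannot exclude one. Depth limits eater most, with 40 to 157 counts per library.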
